A study of Mus musculus with 35 samples.

Results

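Interleukin-1 family ligands and receptors were followed as 10 genes, taken by name from a table of 21203 genes: the ligands Il1a, Il1b, Il18 and Il33, the antagonist Il1rn, the receptors Il1r1, Il1r2, Il1rap and Il1rl1, and the binding protein Il18bp. All 10 were in the table and all 10 passed the filter on low counts, as did 17131 genes in all. The 34 libraries came from C57BL/6NCrl male young adult mice, 1 mouse per library, and measured RNA of a strip of left brain tissue around the injection site, labelled left cortex. Sham mice (n = 5) had neither injury nor injection, and 2 were collected with the 1-week mice and 3 with the 3-week mice. All other mice had a closed head injury (CHI, an impact on the intact skull) and, days later, an injection into the left hippocampus of saline (PBS), of mesenchymal stromal cells (MSCs), or of MSCs into which a synthetic mRNA for IL-4 had been transfected (IL-4 MSCs), and were collected at 1 or 3 weeks post-injury (wpi). There were 5 mice in each injured group but PBS at 3 wpi, which had 4. The injected cells were mouse cells of the same background from 1 lot, so their RNA could not be told apart from that of the host, and no injected but uninjured group was among these libraries.

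Interleukin-1 is an early cytokine of tissue damage. IL-1α and IL-1β bind the same signalling receptor, IL-1R1, which pairs with the accessory protein encoded by Il1rap. The receptor antagonist (Il1rn) occupies IL-1R1 without signalling, and the decoy receptor IL-1R2 takes up the ligands without signalling. IL-18 is held in check by the soluble binding protein Il18bp. IL-33 is released from the nuclei of damaged cells, in the brain largely from oligodendrocytes and astrocytes, and acts through ST2, the product of Il1rl1, together with the accessory protein. ST2 is made as a membrane receptor and as a shorter secreted form that takes up IL-33.

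Positions were read from GENCODE vM21 on GRCm38. Of the 10 genes, 3 receptor genes lie in a row on chromosome 1, Il1r2 at 40074079 to 40125231, Il1r1 at 40225080 to 40317257 and Il1rl1 at 40429570 to 40465415, all on the plus strand. Il1a (129299610 to 129309972) and Il1b (129364570 to 129371139) are neighbours on the minus strand of chromosome 2, where Il1rn (24336853 to 24351494, plus strand) also lies. The remaining genes are on chromosomes 16 (Il1rap), 9 (Il18), 7 (Il18bp) and 19 (Il33).

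Promoter windows from 250 bases before to 50 bases after each annotated start (RefSeq, GRCm38.p6) were found for all 10 genes, 15 windows in all. The windows of Il1rl1 and Il1rn are shown. Of the 10 genes, Il1rl1 gave the largest difference between treatments that passed the test and Il1rn the most uneven one. Capitals mark the letters matched on either strand, namely TTCNNNNGAA for STAT6, GGNNTTTCC for NF-kB and TTGCNNAA for C/EBP, none of which overlap here.
Il1rl1 upstream start, chr1:40429320-40429619, plus strand: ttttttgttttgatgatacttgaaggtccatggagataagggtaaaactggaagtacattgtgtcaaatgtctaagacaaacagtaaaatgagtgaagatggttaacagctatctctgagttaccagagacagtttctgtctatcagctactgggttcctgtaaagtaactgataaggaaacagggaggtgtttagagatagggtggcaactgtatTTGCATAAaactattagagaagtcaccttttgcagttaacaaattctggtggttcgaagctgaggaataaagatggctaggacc
Il1rl1 downstream start, chr1:40439379-40439678, plus strand: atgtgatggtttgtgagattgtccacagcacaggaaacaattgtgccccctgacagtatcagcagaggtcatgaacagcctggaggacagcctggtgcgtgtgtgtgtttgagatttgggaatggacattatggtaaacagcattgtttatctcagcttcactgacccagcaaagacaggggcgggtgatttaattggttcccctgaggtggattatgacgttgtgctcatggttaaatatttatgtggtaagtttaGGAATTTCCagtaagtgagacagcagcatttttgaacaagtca
Il1rn, chr2:24345041-24345340, plus strand: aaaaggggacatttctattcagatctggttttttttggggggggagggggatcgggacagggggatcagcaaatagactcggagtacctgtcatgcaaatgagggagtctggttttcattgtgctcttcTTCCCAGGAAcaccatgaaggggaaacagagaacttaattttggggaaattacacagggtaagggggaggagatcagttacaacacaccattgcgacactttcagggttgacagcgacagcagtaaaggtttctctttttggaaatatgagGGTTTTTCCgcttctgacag
The upstream Il1rl1 window held a C/EBP match beginning at base -34 from the start, and the downstream window an NF-kB match at base 7. The Il1rn window held a STAT6 match at base -121 and an NF-kB match at base 30. Such matches are common: TTCNNNNGAA was found in 6.95% of 32851 promoters, GGNNTTTCC in 5.82% and TTGCNNAA in 10.8%, and among the 15 windows of the family in 4, 3 and 4. Another Il1rn start lies within the same stretch, and its window holds the same matches, so these sites were counted in both windows. The remaining Il1rn window, chr2:24336610-24336909, held none of these matches. The letters say nothing of whether a factor was bound.

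Values per mouse are given as estimated counts scaled to the library's total (CPM), from totals of 29838423 to 41554322 counts, at which 3 counts correspond to 0.0722 to 0.101 CPM. Differences between groups are log2 fold changes ± standard error from edgeR's quasi-likelihood test, fitted over all groups and all 17131 genes, and a gene is said to have risen or fallen at a Benjamini-Hochberg adjusted p under 0.05. As tissue pieces were measured, more cells of a type and more RNA per cell cannot be told apart.

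At 1 wpi, Il1a, Il1b and Il1r1 rose in all 3 injured groups, but the Il1b calls with PBS and MSCs each rested on 1 mouse. Il18, Il33 and Il1rap did not pass the test against Sham in any of these groups. Against Sham, 3 members rose with PBS (Il1a, Il1b and Il1r1) against a background of 8.73% of all genes tested, 5 with MSCs (these and Il1rn and Il1rl1) against 11.0%, and 6 with IL-4 MSCs (these and Il18bp) against 18.4%. No member fell. The median log2 fold change over the 10 members was 0.42, 0.61 and 0.93 in the 3 comparisons, and that over all genes lay between -0.02 and 0. These 3 comparisons share the same Sham mice. In the IL-4 MSCs group 7 members lay wholly above Sham, the 6 that rose and Il33, with a background of 20.6% of genes. Il1a, Il1r1 and Il33 with MSCs, and Il1a and Il1r1 with PBS, also lay wholly above Sham. No background share was taken for these.

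**Figure D1:**
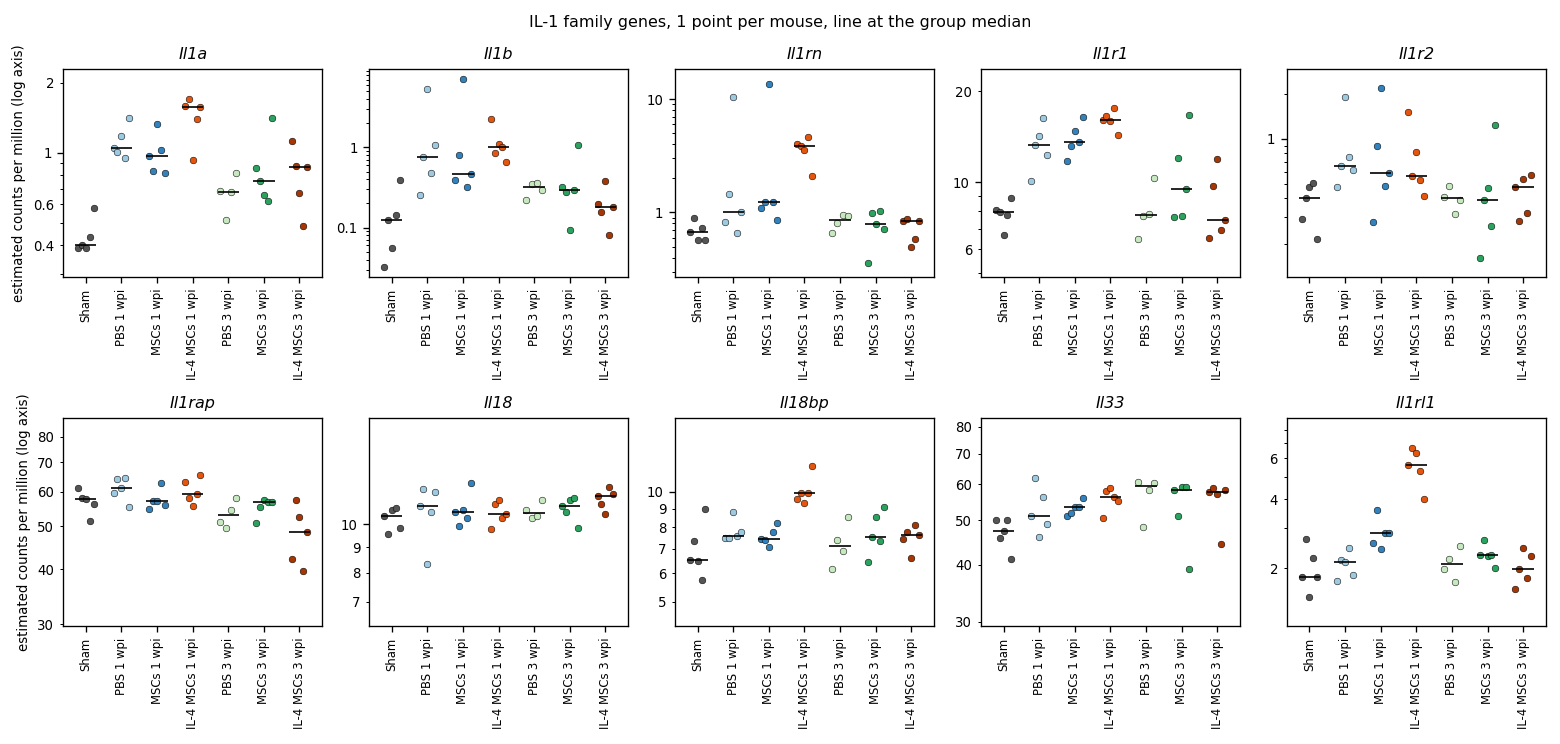
CPM of the 10 genes (log axis, 1 panel per gene) in each of the 34 mice, by group, with a bar at the group median. Mouse 3 of PBS and mouse 3 of MSCs at 1 wpi stand far above the others for Il1b and Il1rn. They are also the highest for Il1r2, at 1.89 CPM (PBS) and 2.17 CPM (MSCs) before 1.51 CPM in the next mouse. All 5 IL-4 MSCs mice at 1 wpi lie above all others for Il1rl1.

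Il1a, the gene of IL-1α, was low and even among mice. Sham mice 1 to 5 had 0.39, 0.4, 0.39, 0.433 and 0.58 CPM. At 1 wpi the PBS mice had 1.05, 1.01, 1.18, 0.948 and 1.41 CPM, the MSCs mice 0.972, 0.835, 1.33, 1.03 and 0.814 CPM, and the IL-4 MSCs mice 1.58, 1.7, 0.931, 1.4 and 1.57 CPM. Every injured mouse of that week was above every Sham mouse, and the 3 injured groups overlapped. The rise over Sham was 1.31 ± 0.23 with PBS (adjusted p = 0.00011), 1.14 ± 0.23 with MSCs (adjusted p = 0.00054) and 1.63 ± 0.23 with IL-4 MSCs (adjusted p = 6.1e-07).

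Il1b, the gene of the secreted IL-1β, was close to the limit of detection in Sham mice, which had 1 to 13 counts. In CPM they had 0.0325, 0.123, 0.0557, 0.144 and 0.397. The PBS mice at 1 wpi had 0.253, 0.761, 5.31, 0.474 and 1.06 CPM, the MSCs mice 0.389, 0.804, 7.09, 0.322 and 0.47 CPM, and the IL-4 MSCs mice 2.25, 0.848, 1.11, 1.02 and 0.652 CPM. Mouse 3 of PBS and mouse 3 of MSCs were the highest, the IL-4 MSCs mice all lay above Sham, and the other groups overlapped with Sham. Il1b rose over Sham by 3.32 ± 0.91 with PBS (adjusted p = 0.012), 3.54 ± 0.90 with MSCs (adjusted p = 0.0049) and 2.86 ± 0.93 with IL-4 MSCs (adjusted p = 0.015). Both of the first calls rested on 1 mouse: without mouse 3 of PBS the first was 2.04 (adjusted p = 0.14), and without mouse 3 of MSCs the second was 1.66 (adjusted p = 0.19).

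Il1rn showed the sharpest contrast between single mice and whole groups. Sham mice had 0.679, 0.888, 0.577, 0.723 and 0.568 CPM. At 1 wpi the PBS mice had 0.83, 1.45, 10.5, 0.654 and 1.01 CPM, the MSCs mice 1.1, 1.23, 13.7, 1.23 and 0.85 CPM, and the IL-4 MSCs mice 3.99, 3.89, 3.57, 4.64 and 2.09 CPM. In the IL-4 MSCs group all 5 mice were raised, whereas in each of the other groups mouse 3 was above every IL-4 MSCs mouse and the other 4 mice were below every one. Il1rn rose over Sham with MSCs (2.35 ± 0.70, adjusted p = 0.017) and with IL-4 MSCs (2.31 ± 0.70, adjusted p = 0.009), and with PBS the difference was 2.02 ± 0.70 (adjusted p = 0.053, and 0.03 to 0.034 without PBS mouse 1, 4 or 5). Without mouse 3, MSCs differed from Sham by 0.62 (adjusted p = 0.57) and PBS by 0.49 (adjusted p = 0.70).

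The 2 mice numbered 3 held the highest and second highest level of Il1b, Il1rn and Il1r2 among all 34. They were also high in S100a8 and S100a9, abundant in neutrophils and also made by monocytes, with 5.24 and 7.69 CPM in the MSCs mouse and 4.48 and 6.08 CPM in the PBS mouse, while no other mouse of those groups was above 1.17 and 1.69 CPM. Mouse 5 of MSCs at 3 wpi had 2.84 and 6.35 CPM of these genes and, of the family, 1.06 CPM of Il1b and 1.24 CPM of Il1r2, both above every Sham mouse, and 0.713 CPM of Il1rn, within the Sham range. Other neutrophil markers were mixed in the 2 mice numbered 3. Ngp was the lowest of its group in both, at 0.0543 CPM (2 counts) with MSCs and 0.0959 CPM (3 counts) with PBS. Camp was the lowest of its group in the PBS mouse (0.032 CPM). Mmp8 was the highest in both, at 1.06 CPM with MSCs and 0.448 CPM with PBS (14 counts, as in PBS mice 2 and 4). Retnlg was at 0.217 CPM with MSCs, below MSCs mouse 1 (0.444 CPM), and at 0.128 CPM (4 counts) with PBS. The IL-4 MSCs mice at 1 wpi had more Retnlg (2.49 to 4.94 CPM) and 0.902 to 2.02 CPM of Mmp8. Their S100a8 (0.494 to 1.92 CPM) and S100a9 (0.524 to 2.23 CPM) were lower than in the 2 mice numbered 3. The summed level of 12 neutrophil markers ranged from 10.27 to 13.04 CPM in Sham, 10.56 to 24.62 with PBS, 13.08 to 27.08 with MSCs and 16.58 to 24.27 with IL-4 MSCs at 1 wpi, and of 9 markers tested 1, 2 and 3 rose over Sham. Cxcr2 made up most of the sum in each Sham mouse, at 7.19 to 8.13 CPM, and lay at 6.25 to 11.3 CPM over all mice. Ly6g, a defining neutrophil marker, was at 3 counts or fewer in every mouse. The part of these transcripts in the result was not tested.

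**Figure D2:**
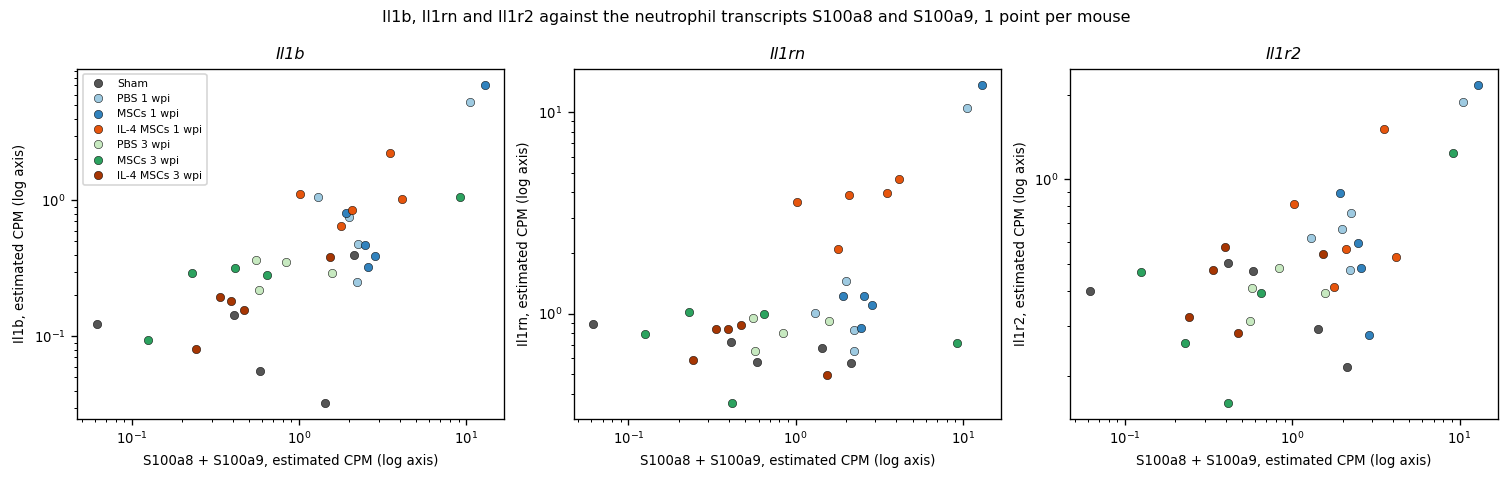
Il1b, Il1rn and Il1r2 in CPM (vertical) against the summed CPM of S100a8 and S100a9 (log axes), with 1 point per mouse coloured by group. The 2 mice numbered 3 lie at the upper right, while the IL-4 MSCs mice at 1 wpi have raised Il1rn at lower S100a8 and S100a9.

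Among the receptors of IL-1, Il1r1 rose in all 3 injured groups at 1 wpi. Sham mice had 8.12, 7.99, 6.71, 7.8 and 8.88 CPM, and PBS mice had 10.1, 13.3, 14.2, 16.3 and 12.3 CPM. The MSCs mice had 11.8, 13.2, 14.8, 13.6 and 16.5 CPM and the IL-4 MSCs mice 16.1, 16.6, 16.0, 17.6 and 14.3 CPM. All 15 injured mice were above all Sham mice, by 0.71 ± 0.17 with PBS (adjusted p = 0.0042), 0.78 ± 0.17 with MSCs (adjusted p = 0.0013) and 0.96 ± 0.17 with IL-4 MSCs (adjusted p = 3.7e-05). The decoy receptor Il1r2 did not pass the test in any comparison. It ranged from 0.214 to 0.505 CPM in Sham and reached 1.89 CPM in mouse 3 of PBS, 2.17 CPM in mouse 3 of MSCs and 1.51 CPM in mouse 1 of IL-4 MSCs at 1 wpi. With IL-4 MSCs its difference from Sham was 0.91 ± 0.50 (adjusted p = 0.16). Il1rap was at 39.6 to 65.3 CPM across the 34 mice and did not pass the test against Sham at 1 wpi.

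Of the IL-18 pair, the ligand varied little, from 8.35 to 12.1 CPM in all mice, and did not pass the test in any comparison. The binding protein Il18bp rose over Sham only with IL-4 MSCs at 1 wpi among the 6 comparisons with Sham. Sham mice had 6.5, 7.32, 6.49, 5.73 and 9.0 CPM. At 1 wpi the PBS mice had 7.47, 7.49, 8.83, 7.58 and 7.78 CPM, the MSCs mice 7.45, 7.39, 7.09, 7.77 and 8.23 CPM, and the IL-4 MSCs mice 9.55, 9.92, 9.34, 9.96 and 11.8 CPM. The last group did not overlap with any of the others, and its difference from Sham was 0.46 ± 0.10 (adjusted p = 0.0004). Il18bp shares 80 exon bases with Numa1 on the other strand, and whether the counting used strand is not given in the sources used here.

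Of the IL-33 pair, the ligand was at 39.2 to 62 CPM and did not pass the test in any comparison. With IL-4 MSCs at 1 wpi the 5 mice had 50.7 to 58.8 CPM and Sham mice 41.2 to 50.2 CPM, without overlap, but the difference was 0.18 (adjusted p = 0.14). The MSCs mice of that week, at 51.1 to 56 CPM, did not overlap with Sham either, at a difference of 0.13 (adjusted p = 0.38). The receptor Il1rl1 gave the clearest response of the family to IL-4 MSCs. Sham mice had 1.84, 2.67, 1.5, 2.22 and 1.84 CPM, PBS mice at 1 wpi 1.77, 2.18, 2.14, 2.45 and 1.88 CPM, MSCs mice 2.57, 3.6, 2.42, 2.86 and 2.86 CPM, and IL-4 MSCs mice 5.64, 6.66, 6.31, 5.32 and 3.99 CPM. Each of the IL-4 MSCs mice was above every other mouse of the series. Il1rl1 rose over Sham by 1.40 ± 0.15 with IL-4 MSCs (adjusted p = 2.4e-09) and by 0.45 ± 0.15 with MSCs (adjusted p = 0.031), where the groups overlapped, and the MSCs call was lost without MSCs mouse 2 or without any of Sham mice 1, 3 and 5, with adjusted p up to 0.12.

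**Figure D3:**
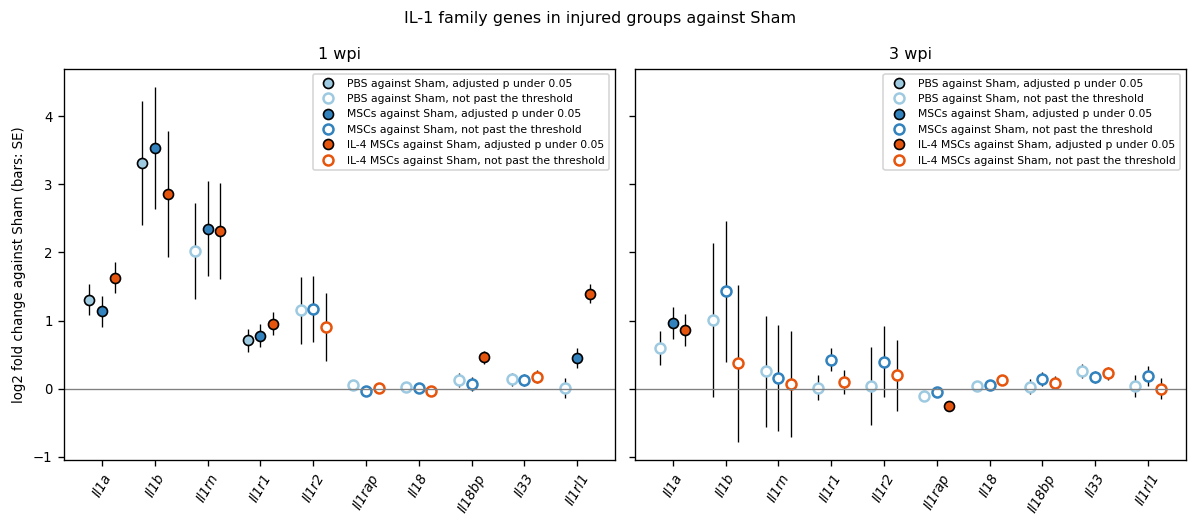
Log2 fold change of each gene against Sham (points, bars 1 standard error, filled where adjusted p was under 0.05) in the 6 injured groups. Il1a and Il1r1 lie above 0.7 in all groups at 1 wpi, Il1rl1 reaches 1.40 with IL-4 MSCs at 1 wpi, and at 3 wpi filled points remain for Il1a (MSCs and IL-4 MSCs) and Il1rap (IL-4 MSCs).

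The treatments were compared with each other at 1 wpi, which asks what the cells, and the IL-4 mRNA with its transfection, added to injury and injection. No group given MSCs transfected with another mRNA was among these libraries, so IL-4 and transfection cannot be told apart. Of the members, only Il18bp and Il1rl1 passed the test between treatments. Both rose with IL-4 MSCs against PBS, where 11.2% of genes rose, and against MSCs, where 7.66% did. Against PBS, Il18bp was higher by 0.33 ± 0.10 (adjusted p = 0.017) and Il1rl1 by 1.39 ± 0.15 (adjusted p = 1.6e-08), and these 2 were also the members without overlap, as were 11.5% of genes. Against MSCs the differences were 0.39 ± 0.10 (adjusted p = 0.0078) and 0.94 ± 0.14 (adjusted p = 1.2e-05). Il1rn differed between IL-4 MSCs and PBS by 0.30 ± 0.62 (adjusted p = 0.81) and between IL-4 MSCs and MSCs by -0.03 ± 0.61 (adjusted p = 0.99). Without mouse 3 of PBS the difference from PBS was 1.86 (adjusted p = 0.024), and without mouse 3 of MSCs that from MSCs turned its sign, to 1.72 (adjusted p = 0.033). Mouse 3 of each group is named here for its high Il1rn, so these fits are a description only. MSCs and PBS differed in none of the members by edgeR at an adjusted p under 0.05 (0.123% of genes), with 1 member at an unadjusted p under 0.05 and 0 by DESeq2.

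Summed levels of 12 monocyte and macrophage markers were highest with IL-4 MSCs at 1 wpi. They ranged from 75.89 to 136.9 CPM in Sham, 162.7 to 245.1 with PBS, 221.4 to 311.8 with MSCs and 610.6 to 895.8 with IL-4 MSCs at 1 wpi, and 7, 9 and 12 of the 12 markers rose over Sham. Of these, Arg1 was at 108 to 169 CPM with IL-4 MSCs at 1 wpi and at most 9.21 CPM in any other mouse. Il1b and Il1rn were highest in mouse 3 of PBS and mouse 3 of MSCs, where the sums were 245.1 and 295.9 CPM. All 12 markers were above 3 counts in at least 1 mouse of each of the 3 injured groups of that week. In the IL-4 MSCs group 5 of 8 endothelial markers also rose over Sham, as did 1 of 5 blood markers while another fell, and the blood sum was 73.57 to 266.4 CPM, against at most 59.81 CPM in any other mouse, although the median log2 fold change of the 5 was -0.66. Microglial markers rose in 7 of 8 in each of the 3 groups. Eosinophil markers rose in 2 of 3 tested over Sham, over PBS and over MSCs, with sums of 3.05 to 5.455 CPM against 0.6016 to 1.076 CPM in Sham and 1.031 to 2.011 CPM in the other groups of that week, and Ear6 at 3 counts or fewer in every mouse. Of 11 T cell and innate lymphoid cell markers, 5 rose over Sham and 2 over PBS, while their sums overlapped (174.6 to 327.6 CPM in Sham and 232.8 to 324.3 CPM with IL-4 MSCs). Of 8 mast cell markers 2 were tested and neither passed, with a median log2 fold change over Sham of 1.02 with IL-4 MSCs and 1.23 with PBS. The mast cell sums were 1.444 to 3.012 CPM in Sham, 2.799 to 8.986 with PBS, 2.285 to 7.864 with MSCs and 2.938 to 6.05 with IL-4 MSCs, and Tpsab1 and Fcer1a were at 3 counts or fewer in every mouse. The part of these cell types in the rise of Il1a, Il1rn, Il18bp and Il1rl1 was not tested.

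The files also held a hint of which transcripts of a gene were counted. The ratio of estimated counts to the length-scaled level (TPM), set on genes with 1 annotated transcript, returns the mean length of the transcripts behind a gene's counts. For such genes it came within 20 bases of the annotated length in 84.1% to 85.4% of cases per library, with a median error of 5.11 to 7.34 bases. These genes also set the scale and had at least 200 counts. Their error does not cover how reads were divided among several transcripts of a gene. Il1rl1 has 5 protein-coding transcripts and had 54 to 235.6 counts, and Il18bp has 4. The measure was chosen after the data had been seen. The Sham mice had an Il1rl1 length of 5062, 5065, 5063, 4840 and 5065 bases, close to an annotated transcript of 5053 bases that codes for the 567 residues of membrane ST2. The PBS mice at 1 wpi had 5245, 5063, 5138, 4995 and 4514 bases, the MSCs mice 5052, 4631, 5007, 4638 and 5001 bases, and the IL-4 MSCs mice 3444, 3695, 3788, 3990 and 4347 bases. The IL-4 MSCs mice were all below all others. The annotation holds shorter transcripts of 2661 bases, ending at 40448148, and of 1216 bases, both of which code for 337 residues, the size of the secreted form, and a mean between 1216 and 5053 bases is that of a mixture. Per length, Il1rl1 went from a median of 0.78 TPM in Sham to 3.47 TPM. By 3 wpi, the IL-4 MSCs mice had a mean of 4995 ± 154 bases (SD, n = 5).

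The same measure fell for Il18bp, with a mean of 2269 ± 63 bases in Sham and 1871 ± 126 bases in the IL-4 MSCs group of the first week (SD over 5 mice). Those 5 mice had 1691, 1900, 1977, 1987 and 1800 bases, while the other groups of that week lay at 2014 to 2323 bases, without overlap. By the two-sided exact permutation test each of these comparisons for Il1rl1 and Il18bp reached p = 0.00794, the smallest that 5 against 5 mice allows, but with 90 tests over 6 members and 15 comparisons the adjusted p was 0.0794 and no test passed. Il1rn had too few counts for this test in some mice. Its length was 1988 bases in every Sham mouse and 1656 to 1854 bases with IL-4 MSCs, which is given as a description only, and mouse 3 of PBS (1675 bases) and mouse 3 of MSCs (1685 bases) lay in that range too.

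**Figure D4:**
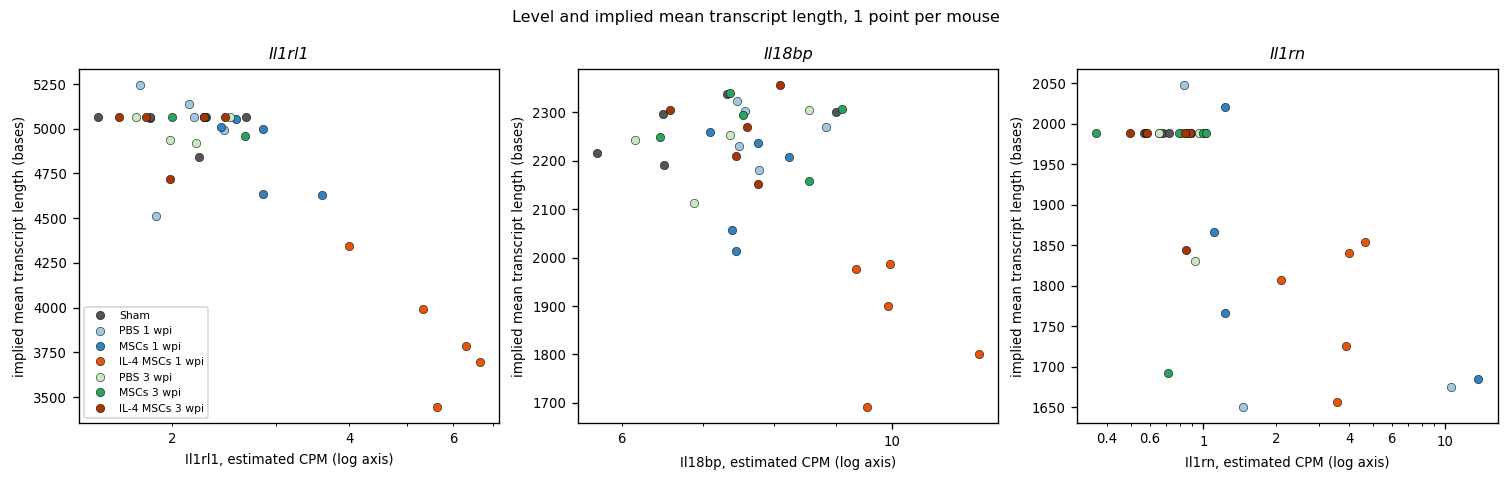
Implied mean transcript length in bases (vertical) against CPM (log axis) of Il1rl1, Il18bp and Il1rn, with 1 point per mouse coloured by group. The IL-4 MSCs mice at 1 wpi form the group of high level and short length, at 3444 to 4347 bases for Il1rl1 and 1691 to 1987 bases for Il18bp.

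At 3 wpi little of the family differed from Sham. With PBS no member passed the test by edgeR (0.0292% of genes in either direction), with 2 members at an unadjusted p under 0.05 and 0 by DESeq2. With MSCs, Il1a rose by 0.96 ± 0.23 (adjusted p = 0.032, 1.11% of genes), and with IL-4 MSCs Il1a rose by 0.86 ± 0.23 (adjusted p = 0.033) and Il1rap fell by 0.26 ± 0.07 (adjusted p = 0.032), with 4.27% of genes passing in either direction. The MSCs mice had 0.862, 0.758, 0.655, 0.621 and 1.41 CPM of Il1a, all above Sham, and the IL-4 MSCs mice 1.12, 0.879, 0.671, 0.483 and 0.864 CPM, where the fourth mouse lay within the Sham range. PBS mice had 0.683, 0.515, 0.676 and 0.819 CPM, of which the second lay within the Sham range and the others within the ranges of both treated groups.

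Il1rap was at 61.1, 58.1, 57.6, 51.5 and 56.3 CPM in Sham and at 42.2, 57.3, 52.5, 39.6 and 48.5 CPM with IL-4 MSCs at 3 wpi, so that mice 1, 4 and 5 of the latter were below Sham and the other mice overlapped. In the same group 10 of 13 markers of the striatum rose over Sham, and their sum was 395.4 to 2645 CPM against 223.5 to 932.2 CPM in all other mice. With a striatum marker score as a covariate the Il1a and Il1rap calls of this group were lost, at log2 fold changes of 0.96 (adjusted p = 0.11) and -0.20 (adjusted p = 0.30). All 3 calls at 3 wpi were also lost when the 3 Sham mice of that week alone were used, and when Sham mouse 1 or 3 was left out. Leaving out Sham mouse 2 or 4 ended both Il1a calls, as did mouse 1 or 5 of the treated group in each (adjusted p up to 0.25 with MSCs and 0.18 with IL-4 MSCs), and leaving out IL-4 MSCs mouse 1, 4 or 5 ended the Il1rap call. At 3 wpi no member passed the test between IL-4 MSCs and PBS (2.94% of genes), IL-4 MSCs and MSCs (3.47%) or MSCs and PBS (0.0817%) by edgeR, with 0, 1 and 1 member at an unadjusted p under 0.05 and 0 in each by DESeq2. Without mouse 2 of IL-4 MSCs, Il1rap was lower there than with MSCs by a log2 fold change of -0.28 (adjusted p = 0.0049) and than with PBS by -0.22 (adjusted p = 0.039).

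From 1 to 3 wpi, 7 members fell in the IL-4 MSCs group, where 16.6% of genes fell, 1 in the PBS group (4.90%) and none in the MSCs group (6.15% in either direction by edgeR, with 3 members at an unadjusted p under 0.05 and 1 by DESeq2). With IL-4 MSCs, Il1rn fell by 2.24 ± 0.69 (adjusted p = 0.012), to 0.843, 0.881, 0.495, 0.586 and 0.841 CPM, and Il1rl1 fell by 1.40 ± 0.15 (adjusted p = 3.7e-09), to 1.63, 1.99, 2.46, 1.81 and 2.27 CPM. Neither overlapped with the 1-week mice, and both lay around the Sham levels. Il1b fell by 2.49 ± 0.89 (adjusted p = 0.03), Il1r1 by 0.86 ± 0.17 (adjusted p = 0.00018) and Il1a by 0.77 ± 0.21 (adjusted p = 0.0045). Il18bp fell by 0.37 ± 0.10 (adjusted p = 0.004) and Il1rap by 0.27 ± 0.07 (adjusted p = 0.0031). The Il1b call was lost without mouse 1 of the 1-week group or mouse 1, 2, 4 or 5 of the 3-week group, with adjusted p up to 0.09. In the PBS group Il1r1 fell by 0.70 ± 0.18 (adjusted p = 0.017), to 6.48, 7.72, 7.87 and 10.3 CPM, which overlapped the 1-week PBS mice, and the call was lost without PBS mouse 4 at 1 wpi or mouse 1 or 2 at 3 wpi (adjusted p up to 0.096). In the MSCs group Il1rn differed between the weeks by -2.19 (adjusted p = 0.053), and by -0.47 (adjusted p = 0.81) without mouse 3 of 1 wpi. The MSCs mice at 3 wpi had 7.66, 12, 7.71, 9.51 and 16.7 CPM of Il1r1, and without mouse 5 their difference from 1 wpi was -0.57 (adjusted p = 0.018).

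Whether a treatment difference itself changed between the weeks was tested directly. For Il1rl1, the gap separating IL-4 MSCs from PBS shrank from 1 to 3 wpi by 1.43 ± 0.22 (adjusted p = 7.4e-05), the 1 member to do so where 3.93% of genes did. The gap separating IL-4 MSCs from MSCs shrank for Il1rl1 by 1.13 ± 0.21 (adjusted p = 0.00049) and for Il18bp by 0.44 ± 0.14 (adjusted p = 0.047, up to 0.098 without single mice), with 5.96% of genes. For MSCs against PBS it changed for no member and 0% of genes by edgeR, with 572 genes, none of them members, at an unadjusted p under 0.05 and 6 genes by DESeq2. For Il1rn the change was 0.48 against PBS (adjusted p = 0.88) and 0.05 against MSCs (adjusted p = 0.99) over all mice. With both mice numbered 3 left out it shrank by 2.02 against PBS (adjusted p = 0.00044) and 1.78 against MSCs (adjusted p = 0.00077). These mice were picked for their high Il1rn after the data were seen, so this fit is a description only.

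Per length, in TPM, the family spanned a wide range of levels. In Sham the median was 52.3 TPM for Il33, 34.3 for Il18, 31.0 for Il1rap, 6.5 for Il18bp, 3.39 for Il1r1, 1.85 for Il1r2, 0.78 for Il1rl1, 0.757 for Il1rn, 0.459 for Il1a and 0.217 for Il1b. Il18 and Il1rap overlapped in Sham, as did each pair of neighbours from Il1r2 down. With IL-4 MSCs at 1 wpi the order of the first 5 was the same, from 58.5 TPM for Il33 to 6.75 for Il1r1. Il1rn followed at 4.86 TPM and Il1rl1 at 3.47 TPM, which overlapped each other, then Il1a at 1.77 TPM, Il1b at 1.75 TPM and Il1r2 at 1.53 TPM. By their medians Il1rn and Il1rl1 thus stood above Il1r2, which they followed in Sham, but the ranges over mice overlapped, with Il1r2 at up to 4.36 TPM. In the other injured groups Il1rl1 and Il1rn overlapped with their neighbours in the order, apart from Il1r2 above Il1rn with PBS at 3 wpi and Il1b below Il1rl1 with IL-4 MSCs at 3 wpi.

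**Figure D5:**
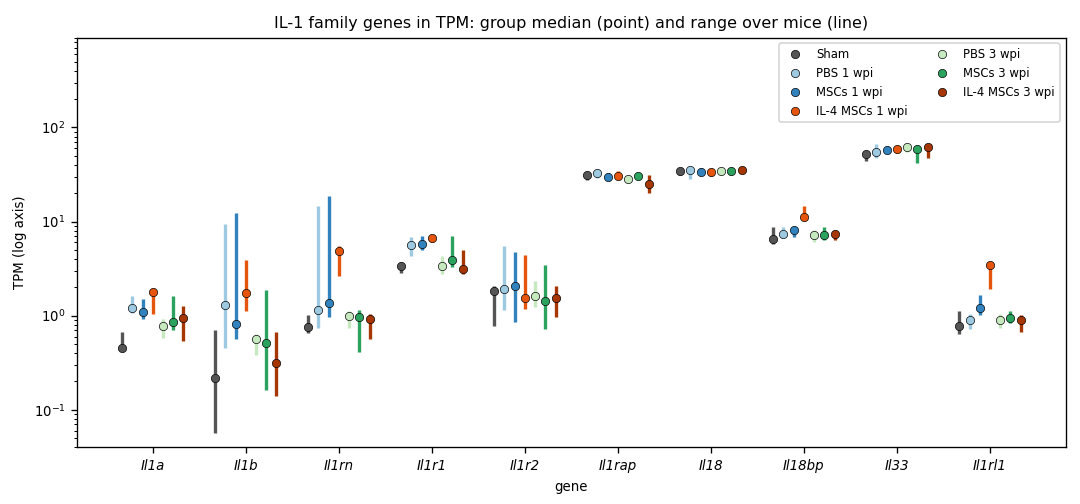
Median TPM of the 10 genes (log axis) in each of the 7 groups, with bars from the lowest to the highest mouse. Il33, Il18 and Il1rap stay highest in every group, and Il1rn and Il1rl1 stand higher with IL-4 MSCs at 1 wpi than in Sham.

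Genes around the family were followed as 4 lists, whose counts at 1 wpi are read against the 8.73%, 11.0% and 18.4% of all genes that rose over Sham with PBS, MSCs and IL-4 MSCs and the 11.2% that rose with IL-4 MSCs over PBS. Of 7 other family genes tested, 2, 2 and 4 rose over Sham and 2 rose with IL-4 MSCs over PBS, and the median log2 fold changes over Sham were 0.38, 0.31 and 0.61. Il1rl2, the IL-36 receptor, was at 5.78 ± 0.72 CPM with IL-4 MSCs, 1.71 ± 0.18 with PBS and 1.09 ± 0.37 in Sham (SD, n = 5 each), and rose by 1.72 ± 0.16 over PBS (adjusted p = 9.4e-10). Il18rap, the signalling partner of the IL-18 receptor, was at 1.14 ± 0.28 CPM with IL-4 MSCs and 0.107 ± 0.106 CPM in Sham, where it was around 3 counts (adjusted p = 4.8e-06). Sigirr, an inhibitory receptor of the family, rose over PBS by 0.65 ± 0.15 (adjusted p = 0.0026).

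Of 10 genes of the inflammasome and of IL-1 processing tested, 7, 8 and 8 rose over Sham at 1 wpi with PBS, MSCs and IL-4 MSCs, and 6 rose with IL-4 MSCs over PBS, with medians over Sham of 0.75, 0.88 and 1.31. Among them the sensor Nlrp1b was higher than with PBS by 1.46 ± 0.16 (adjusted p = 2.1e-08), its neighbour Nlrp1a by 1.41 ± 0.23 (adjusted p = 2.8e-05), and Gsdmd, the pore through which IL-1β leaves the cell, by 1.04 ± 0.13 (adjusted p = 2.9e-07). Nlrp1a and Nlrp1b are near copies of each other, so reads could be divided between them. The DNA sensor Aim2 rose over Sham by 0.85 ± 0.08 (adjusted p = 2.4e-10). Of 20 genes of IL-1 receptor signalling, 6 rose with PBS, 9 rose and 1 fell with MSCs, and 10 rose and 2 fell with IL-4 MSCs, with medians of 0.06, 0.07 and 0.10. The adaptor Myd88 rose over Sham with IL-4 MSCs by 1.11 ± 0.11 (adjusted p = 6.4e-10) and the kinase Irak4 by 1.34 ± 0.13 (adjusted p = 2.8e-10), and over PBS Nfkb1 rose by 0.45 ± 0.06 (adjusted p = 1.2e-06) and Nfkb2 by 0.99 ± 0.15 (adjusted p = 1.2e-05).

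Of 16 genes known to respond to IL-1, 9, 9 and 12 rose over Sham at 1 wpi, with medians of 0.67, 0.58 and 1.40, and 6 rose with IL-4 MSCs over PBS. The chemokine gene Ccl2 was at 6.99 ± 2.28 CPM with IL-4 MSCs and 1.37 ± 0.61 CPM with PBS, a rise of 2.31 ± 0.38 (adjusted p = 2.9e-05), and at 0.0644 ± 0.0656 CPM in Sham. Vcam1, an adhesion molecule of endothelium, rose over Sham by 0.81 ± 0.09 (adjusted p = 1.3e-08). Both Tnfaip3 and Zc3h12a, which restrain NF-kB signalling and cytokine mRNA, rose over PBS, by 0.64 ± 0.11 (adjusted p = 7.7e-05) and 0.48 ± 0.09 (adjusted p = 9e-05). Between MSCs and PBS at 1 wpi none of these 4 lists had a member past the threshold. Without both mice numbered 3, the lists had 2, 6, 5 and 9 genes higher than Sham with PBS and 2, 8, 7 and 6 with MSCs.

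Some genes followed single members closely across the 34 libraries, which share groups and injury, so the correlations of log2 CPM describe these libraries. Il1rn was most like the neutrophil chemokine genes Cxcl3 (r = 0.942) and Cxcl2 (0.928) and the receptor Clec4e (0.896), and Il1r2 was most like Trem1 (0.824). Il1b followed Cd14 (0.891), Clec4e (0.88) and Clec4d (0.87), genes of myeloid cells, and Il1a followed Cd52 (0.925), Cybb (0.907) and Ptpn6 (0.894). Il1r1 was most like Cebpd (0.917), Il18bp like the complement regulator Cfp (0.789), and Il1rl1 like the eotaxin gene Ccl24 (0.877) and Stat2 (0.877). With group means removed, Il1rn was still most like Cxcl3 (0.917), whereas no gene was above 0.644 for Il1rl1. Mouse 3 of PBS and mouse 3 of MSCs at 1 wpi held the highest levels of Il1rn, Il1b and Il1r2. The correlations were not repeated without these mice, so their part in them was not tested. Il1rap, Il18 and Il33 were most like Tafa4 (0.813), Ier3ip1 (0.709) and Mid1ip1 (0.663).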

How the data were processed

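RNA of left brain tissue from 34 mice in 7 groups was sequenced. A mouse of the PBS 3 wpi group labelled as excluded was not analysed here. The authors trimmed reads with cutadapt 2.4, checked them with FastQC 0.11.8 and quantified them against protein-coding mouse transcripts (GENCODE vM23, GRCm38) with kallisto 0.46, and summed them per gene with sleuth 0.30 in R 3.6.1. The deposited table holds estimated counts and TPM per gene and library. Its columns of the authors' own comparisons (p-values, q-values and effect sizes) were not used.

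Estimated counts were rounded, filtered with filterByExpr (17131 of 21203 genes kept, all 10 members), scaled by TMM (factors 0.968 to 1.04) and tested with edgeR 4.0.16 in R 4.3.3 (glmQLFit, glmQLFTest, 1 term per group) in 15 comparisons of groups and 3 of treatment differences between weeks. P-values were adjusted by Benjamini-Hochberg over all tested genes at 0.05. CPM in the text uses library totals without TMM. Totals of 29838423 to 41554322 counts limit precision for genes near 3 counts. Since all members passed, no member needed a separate permutation test. Implied transcript length was tested by exact permutation (SciPy 1.17.1). Scripts were tested on simulated data. Each library is 1 mouse. In the main fit, edgeR's p-values rest on a spread between mice estimated over all groups, not over the compared groups alone. For Il1rn against Sham at 1 wpi the standard error was thus 0.70 whichever treatment was compared. The SD in CPM was 4.28 for PBS, 5.66 for MSCs and 0.946 for IL-4 MSCs. The high Il1rn of the mice numbered 3 therefore also entered the test of IL-4 MSCs against Sham. No 2 libraries of a group agreed within sampling noise.

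Members and lists were chosen with earlier results of these data known. Named genes were all members, per list the 3 with the smallest adjusted p in IL-4 MSCs against Sham and against PBS at 1 wpi, and the 3 most like each member. Genes called out for single mice (S100a8, S100a9, Mmp8, Ngp, Camp and Retnlg), and Cxcr2 and Arg1, were named after their values were seen. Alternatives were DESeq2 1.42.0, other scalings, no filter, a robust spread, only the compared groups, same-week Sham mice, a striatum marker covariate, a replicate block and leaving out mice.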

Additional observations from a re-analysis of the deposited data

Results flagged for a closer look

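In 10 of 70 sets of 1 member in 1 group, 1 mouse was flagged as far from its group on log2 CPM. Chance alone would give about 1 in 20. Mouse 3 of MSCs at 1 wpi was far above its group for Il1b (7.09 CPM) and Il1rn (13.7 CPM), and mouse 3 of PBS at 1 wpi was far above for Il1rn (10.5 CPM) and Il18bp (8.83 CPM) and far below for Il18 (8.35 CPM). Mouse 5 of Sham was flagged as high for Il1a (0.58 CPM), but it had 19 counts where Sham mouse 4 had 18. Mouse 5 of IL-4 MSCs at 1 wpi was high for Il18bp (11.8 CPM). Il1rap was high in mouse 4 of MSCs at 1 wpi (62.6 CPM) and low in mouse 1 of MSCs at 3 wpi (51.0 CPM), and Il33 was low in mouse 4 of IL-4 MSCs at 3 wpi (44.5 CPM).

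Treatment differences that changed between the weeks were those of Il1rl1 between IL-4 MSCs and PBS, larger at 1 wpi by 1.43 on the log2 scale (adjusted p = 7.4e-05 by edgeR), of Il1rl1 between IL-4 MSCs and MSCs, larger by 1.13 (adjusted p = 0.00049), and of Il18bp between IL-4 MSCs and MSCs, larger by 0.44 (adjusted p = 0.047).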

How the results depend on the processing

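Calls of members against Sham at 1 wpi numbered 14 over 3 comparisons, and 9 with same-week Sham mice only. At 3 wpi they numbered 3, and 0 with only the compared groups fitted, 0 with same-week Sham mice and 1 with the striatum covariate. Leaving out 1 mouse gave 12 to 16 and 0 to 3 calls, and for the other families 4 to 6 calls (4 between treatments at 1 wpi), 0 to 2 (0 between treatments at 3 wpi), 7 to 11 (8 between weeks) and 2 to 4 (3 of treatment by week). The 2 calls between treatments at 3 wpi came without IL-4 MSCs replicate 2. No call reversed. Il1a and Il1r1 against Sham at 1 wpi and each Il1rl1 call with IL-4 MSCs were kept in every alternative, as were the Il18bp calls of IL-4 MSCs at 1 wpi in comparisons of 2 groups. Il18bp in the treatment-by-week test was lost in 2 of 8 settings and in 12 of 22 fits without single mice or a pair of mice. With same-week Sham mice Il1b (PBS and IL-4 MSCs), Il1rn (MSCs and IL-4 MSCs) and Il1rl1 (MSCs) lost their calls at 1 wpi. With only the compared groups fitted, Il1rn (2.37, adjusted p = 0.074) and Il1rl1 (0.47, adjusted p = 0.073) lost theirs with MSCs against Sham at 1 wpi. Il33 with IL-4 MSCs against Sham gained a call with library totals (0.25, adjusted p = 0.037) and with only the compared groups (0.21, adjusted p = 0.016). The causes were not tested. Low counts of Il1a, Il1b and Il1r2 limit what could be detected.

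The mice share replicate numbers across groups only as labels. Same-numbered mice had a median correlation of deviations of 0.0116 (99 pairs, -0.462 to 0.4) against 0.00122 for other pairs, and 6 of 34 libraries correlated best with their own number. With the replicate block the counts of calls were 14, 3, 4, 0, 8 and 3 and no call changed. The planned fit without both mice highest in Il1rn named replicate 2, a count from 0, and was run as written and, chosen after seeing the data, with replicate 3.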
